A study of Mus musculus with 2 samples.

Results

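Activator protein 1 (AP-1) is a family of dimeric transcription factors, and the genes described here are Fos, Fosb, Fosl1, Fosl2, Jun, Junb, Jund, Atf3, Batf and Batf2. They were chosen by gene symbol and number 10 of the 55536 genes in the deposited gene tables. The data are ribosome-depleted total RNA of the nuclear fraction of primary bone-marrow-derived macrophages from the C57BL/6J mouse strain. Per the labels, both libraries came from cells that took a first dose of Lipid A (100 ng/ml, 12 h), a washout of 12 h and a second dose of Lipid A (100 ng/ml, 10 min) before harvest. Lipid A, the membrane anchor of bacterial lipopolysaccharide, is sensed by the receptor TLR4. This is the only condition, and its biological replicates 1 and 2 were made from 1 µg and 500 ng of starting nucleic acid. They share a donor identifier and have separate biosample identifiers, and the labels do not say whether the cells were cultured separately, so the spread between them may be partly technical. Sex and age were not collected, and untreated cells, other times and other fractions were not used here, so no level below is a response to Lipid A.

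AP-1 proteins carry a basic leucine zipper, a helix by which they pair with one another and bind DNA. Fos proteins do not pair with themselves and bind DNA with a Jun partner, whereas Jun proteins can also pair among themselves, and BATF proteins pair with Jun partners and cooperate with interferon regulatory factors. In macrophages, TLR4 signals through MAP kinases to the Fos and Jun genes, several of which are immediate early genes, transcribed within minutes of a stimulus without new protein synthesis, and Atf3 is known as a restraint on TLR4-driven cytokine genes.

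Expected counts on genes, which are estimated read numbers, summed to 24444219 in replicate 1 and 18051097 in replicate 2. Levels below are TPM, a unit that divides reads by transcript length and scales each library to the same total. Detection required 1 TPM or more and 10 expected counts or more in each library. The cells carried macrophage markers: 10 of 10 were detected at a median of 112 TPM, from Tlr4 at 23.8 to Lyz2 (lysozyme) at 961. Of 25 markers of 8 other cell types, 0 were detected, 11 were listed at 0, and together they summed to 1.12 TPM in replicate 1 and 1.18 in replicate 2. Outside those 25, the endothelial genes Vwf and Kdr, named after their values were seen, were also present, at 14.6 ± 4.47 and 9.21 ± 5.48 TPM (SD, n = 2).

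The promoters of Fos, Fosb and Jun are shown because Fos and Fosb had the highest ratios between the replicates and Jun, the partner of Fos, lay on the other side. Each runs 5′ to 3′ on the gene's strand and ends just before the gene's start in GENCODE M21, and the sequence is from RefSeq (GRCm38.p6). The Fos stretch is chr12:85473640-85473889 on the plus strand, the Fosb stretch chr7:19310052-19310295 on the minus strand and the Jun stretch chr4:95052223-95052472 on the minus strand. Capitals mark matches to the motifs that are described next.
Fos: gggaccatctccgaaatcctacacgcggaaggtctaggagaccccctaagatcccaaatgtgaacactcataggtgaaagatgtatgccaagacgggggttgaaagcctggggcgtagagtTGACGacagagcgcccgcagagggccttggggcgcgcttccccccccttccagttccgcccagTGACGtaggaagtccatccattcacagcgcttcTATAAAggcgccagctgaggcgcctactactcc
Fosb: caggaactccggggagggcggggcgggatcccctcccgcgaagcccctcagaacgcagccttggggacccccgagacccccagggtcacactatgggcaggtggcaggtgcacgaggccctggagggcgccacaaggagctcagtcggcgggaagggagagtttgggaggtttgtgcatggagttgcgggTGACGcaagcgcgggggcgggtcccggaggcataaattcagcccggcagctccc
Jun: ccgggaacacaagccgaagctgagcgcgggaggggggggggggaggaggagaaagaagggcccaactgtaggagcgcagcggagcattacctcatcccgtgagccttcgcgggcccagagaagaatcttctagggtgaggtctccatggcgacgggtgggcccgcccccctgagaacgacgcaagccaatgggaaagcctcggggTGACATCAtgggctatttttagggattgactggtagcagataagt

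Motifs were searched on both strands from 250 bases before to 50 bases after the RefSeq start in the 8 members that have an entry. TGACG, the core of the cyclic-AMP response element, was present in 5 of 8, namely Fos, Fosb, Junb, Atf3 and Batf, against 20.8% of 32851 promoters of the same length. Fos held it 2 times, at −129 to −125 and at −66 to −62 from the RefSeq start, with TATAAA at −33 to −28, and Fosb held it at −60 to −56. Jun held TGACATCA at −45 to −38, a sequence carried by 3.62% of promoters. The full element TGACGTCA, in which each match also holds TGACG, was in 0 of 8 members and 1.79% of promoters. TGANTCA, where N is any base, is a wider pattern that takes in the common site of Fos and Jun dimers. It was in 0 of 8 and 7.81%, and the CArG box, the site of serum response factor, in 0 of 8 and 1.63%. The TGACATCA of Jun does not match TGANTCA, so this 0 does not mean that members lack every site for AP-1. TATAAA was in 2 of 8, Fos and Junb, and in 13.6% of promoters. These are matches of letters within this window and no measure of binding. Sequence farther upstream, of Fos or of the other members, was not searched, so sites there would be missed.

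Of the 10 members, 7 were detected in both libraries, beside 42.9% of 22028 protein-coding genes. They were Jun, Junb, Jund, Fos, Atf3, Batf and Batf2. Fosl2 and Fosb reached a TPM of 1 in replicate 2 only, and Fosl1 in neither. By mean TPM the order from the top was Junb, Atf3, Jun, Jund, Batf2, Batf, Fos, Fosl2, Fosb and Fosl1. The ranges of the replicates overlapped between the neighbours Junb and Atf3, Jund and Batf2, Batf2 and Batf, Batf and Fos, and Fosl2 and Fosb, so these pairs were not separated by the spread of single genes over the libraries. Within each library, Junb nevertheless stood above Atf3, Batf2 above Batf and Fosl2 above Fosb. Jund also stood above Batf2 in each, though barely in replicate 1 (20.59 and 20.55 TPM). The ranges were apart between Atf3 and Jun, Jun and Jund, Fos and Fosl2, and Fosb and Fosl1. For Fosb and Fosl1 the gap in replicate 1 rests on 6 counts against 0, near the floor. In a second set of transcript estimates that the authors deposited, called the other quantification here, levels were lower and Fos (5.89 TPM) stood above Batf (5.49). There the ranges of Jun (10.9 and 10.6 TPM) and Jund (9.18 and 11.9) overlapped, with Jund the higher in replicate 2. Batf2 (11.6 TPM) stood above Jund in replicate 1 of that quantification. The median detected protein-coding gene stood at 7.30 TPM in replicate 1 and 8.56 in replicate 2.

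**Figure D1:**
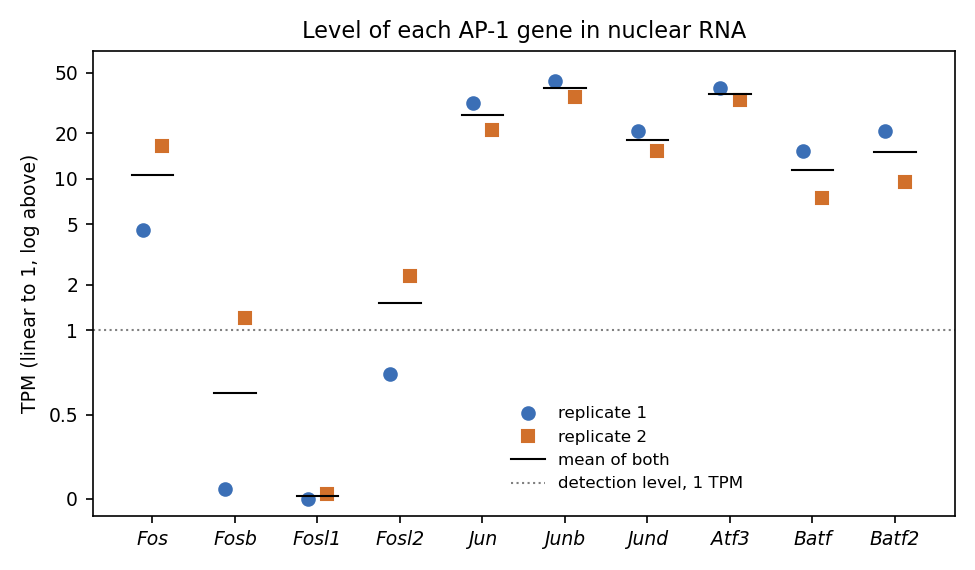
TPM of each AP-1 gene in each library on an axis that is linear up to 1 TPM and logarithmic above it; each point is 1 library, short bars are means and the dotted line marks the detection level of 1 TPM. The Jun genes and Atf3 lay between 15.27 and 44.34 TPM in both libraries, whereas Fosl1 was at 0.00 and 0.03.

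To compare the replicates, normalised counts of replicate 2 were divided by those of replicate 1 and put on a log2 scale, for genes whose counts averaged 10 or more. The 95% interval beside each ratio is an exact binomial one and covers counting error only. With 1 library on each side no test was possible, and the ratio measures the spread of these libraries. Replicate 1 had both the larger starting quantity and the higher total count, and these cannot be told apart from other differences between the libraries. Of the 9 members with a ratio, 3 were more than 2-fold higher in replicate 2, all of them Fos genes, beside 3.07% of 15431 genes and 2.14% of protein-coding genes. The 2 Batf genes were more than 2-fold lower, beside 5.37% of genes and 4.07% of protein-coding genes. The median over the 9 was −0.61, beside 0.01 over 11751 protein-coding genes, whose 5th and 95th percentiles were −0.90 and 0.70. All 6 members outside the Fos family had a ratio below 0.

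**Figure D2:**
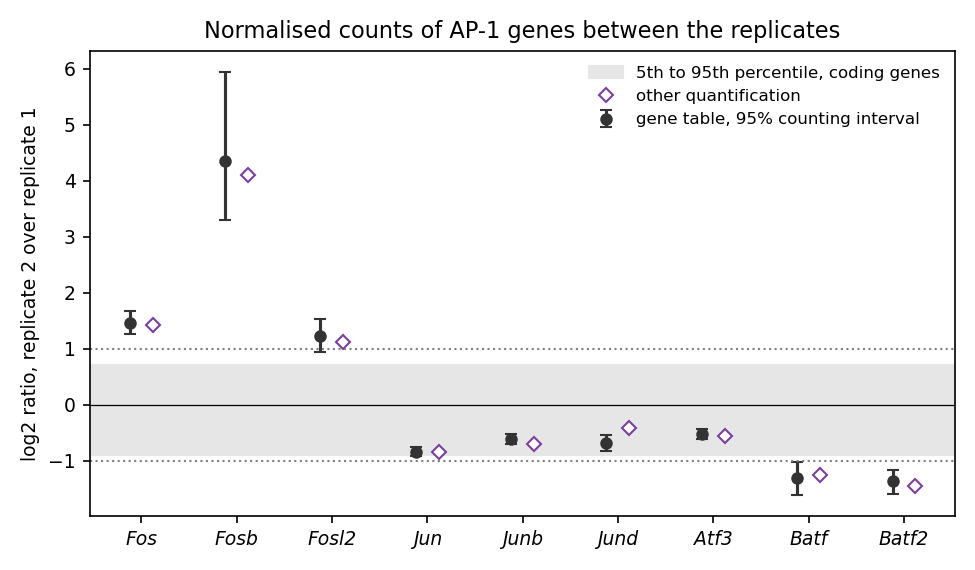
Replicate 2 over replicate 1 as log2 of normalised counts for the 9 measured members; filled points are from the gene tables with 95% counting intervals, open points from the other quantification, and dotted lines mark 2-fold. The shaded band runs from the 5th to the 95th percentile of protein-coding genes (−0.90 to 0.70), and Fos, Fosb and Fosl2 lie above it while Batf and Batf2 lie below it.

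Among the Fos genes, which supply the partners of Jun, Fos itself was the highest. Fos (ENSMUSG00000021250.13, chr12:85473890-85477273, plus strand, mm10) stood at 4.63 TPM in replicate 1 and 16.55 in replicate 2 (10.6 ± 8.43, SD, n = 2), from 271 and 622 expected counts. Replicate 2 was the high library, with 71.6% of detected protein-coding genes below Fos there and 33.6% in replicate 1. The log2 ratio was 1.47 (1.26 to 1.68), a fold of 2.77, and 0.400% of protein-coding genes of like count, within 2-fold, lay farther from 0.

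Fosb, a Fos relative that also has a transactivating end, showed the widest gap. Fosb (ENSMUSG00000003545.3, chr7:19302696-19310051, minus strand) stood at 0.06 TPM in replicate 1 and 1.20 in replicate 2 (0.630 ± 0.806, SD, n = 2). The gap rests on 6 expected counts in replicate 1 against 110 in replicate 2. The log2 ratio was 4.36, with a counting interval of 3.30 to 5.95, a fold of 20.6. Among protein-coding genes of like count, 0.103% lay farther from 0.

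Fosl2 (Fra-2) and Fosl1 (Fra-1) are Fos relatives without the transactivating end of Fos. Fosl2 (ENSMUSG00000029135.10, chr5:32135801-32157842, plus strand) stood at 0.74 TPM in replicate 1 and 2.29 in replicate 2 (1.52 ± 1.10, SD, n = 2), from 143 and 278 counts. Replicate 2 was again the high library, with a log2 ratio of 1.23 (0.94 to 1.53) and a fold of 2.35. Fosl1 (ENSMUSG00000024912.6, chr19:5447547-5455946, plus strand) had 0 counts in replicate 1 and 1.32 in replicate 2. A count of 0 allows up to 3 counts in replicate 1, or 0.123 CPM, and no ratio was formed. Fosl1 shares 2767 bases with Ccdc85b on the opposite strand, a gene with 55.0 and 33.7 counts, so that even the few Fosl1 reads are of uncertain origin where strand was not used.

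The Jun genes encode the partners common to the other families, and they held the largest share of the summed AP-1 TPM in both libraries and both quantifications. Junb, which often opposes Jun at shared sites, was the highest member. Junb (ENSMUSG00000052837.6, chr8:84974484-84978718, minus strand) stood at 44.34 TPM in replicate 1 and 34.66 in replicate 2 (39.5 ± 6.84, SD, n = 2), from 2798 and 1517 counts, and its log2 ratio was −0.61 (−0.70 to −0.52). Jun (ENSMUSG00000052684.4, chr4:95049034-95052222, minus strand) stood at 31.73 and 21.06 TPM (26.4 ± 7.54, SD, n = 2), from 3743 and 1734 counts. Its log2 ratio of −0.84 (−0.92 to −0.75) lay between the 5th and 95th percentiles of protein-coding genes. Among those of like count to each gene, 3.57% lay farther from 0 than Jun, 8.57% than Junb and 5.58% than Jund. Jund, the most constitutive Jun gene in many tissues, was the lowest of the family in the gene tables. Jund (ENSMUSG00000071076.6, chr8:70698949-70700616, plus strand) stood at 20.59 and 15.27 TPM (17.9 ± 3.76, SD, n = 2), from 1186 and 613 counts, with a log2 ratio of −0.68 (−0.82 to −0.54). All 3 were lower in replicate 2 than in replicate 1 by normalised counts, and none by more than 2-fold. On the TPM scale of the other quantification, which moved the median protein-coding gene by 0.69, Junb stood at 16.2 and 17.3 TPM and Jund at 9.18 and 11.9, so that they were below that median shift but not below 0.

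Reads of the Jun genes could be shared with overlapping genes, since strandedness is not given in the sources used here. Junos, annotated antisense to Jun, shares 689 bases with it and held 33.7 counts in replicate 1 and 21.2 in replicate 2, beside 3743 and 1734 for Jun. Gm11175 lies antisense to 919 bases of Jund and held 4.68 and 0 counts. Prdx2, a peroxiredoxin gene on the opposite strand, shares 351 bases with the Junb locus and held 784 and 431 counts. The Junos and Gm11175 counts were small beside those of Jun and Jund, but reads within the shared bases cannot be told apart.

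Atf3 encodes a stress-induced factor that pairs with Jun proteins or with itself. Atf3 (ENSMUSG00000026628.13, chr1:191170296-191218039, minus strand) stood at 39.74 TPM in replicate 1 and 33.02 in replicate 2 (36.4 ± 4.75, SD, n = 2), from 2788 and 1609 counts. It was above 91.3% of detected protein-coding genes in replicate 1 and above 87.8% in replicate 2. Its log2 ratio of −0.52 (−0.61 to −0.43) was the nearest to 0 among the 9 measured members in the gene tables, whereas Jund was the nearest in the other quantification (−0.41), and 12.7% of protein-coding genes of like count lay farther from 0. In the other quantification it stood at 14.6 and 17.0 TPM, again below the shift of the median gene on that scale, with a log2 ratio of normalised counts of −0.56.

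Batf and Batf2 encode short AP-1 proteins that lack a transactivating end and act with interferon regulatory factors. Batf (ENSMUSG00000034266.6, chr12:85686669-85709087, plus strand), which lies downstream of Fos on the same chromosome, stood at 15.33 TPM in replicate 1 and 7.45 in replicate 2 (11.4 ± 5.57, SD, n = 2), from 388 and 130 counts. Batf2 (ENSMUSG00000039699.14, chr19:6140983-6172476, plus strand) stood at 20.55 and 9.50 TPM (15.03 ± 7.81, SD, n = 2), from 743 and 238 counts. Replicate 1 was the high library for both. Batf had a log2 ratio of −1.30 (−1.60 to −1.01), 2.46-fold lower in replicate 2, and Batf2 had −1.37 (−1.58 to −1.16), 2.58-fold lower. Batf2 shares 566 bases with Arl2 on the opposite strand, a gene with 147 and 139 counts.

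Interferon-stimulated genes, a group that Batf2 is known to belong to, went the same way as the Batf genes. In a list added with its values known, 10 of 10 were detected, 5 were more than 2-fold lower in replicate 2 and 0 higher, beside 5.37% and 3.07% of all genes, and the median log2 ratio was −0.996. They included Cxcl10, a chemokine, at −1.74 and Isg15, a ubiquitin-like protein, at −1.62. The summed level of the list was 4111 TPM in replicate 1 and 2507 in replicate 2. The macrophage markers had a median of −0.27, with 0 of 10 above 0, and Fcgr1 (−1.14) was the only 1 of the 10 more than 2-fold lower. The part of this difference in the Batf and Batf2 ratios was not tested. In these bulk libraries fewer cells of a type and less RNA per cell cannot be told apart.

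The make-up of the AP-1 pool followed from these levels. The members summed to 177.71 TPM in replicate 1 and 141.03 in replicate 2. The Jun family held 54.4% and 50.3% of it, or 50.9% and 49.6% in the other quantification, and Atf3 held 22.4% and 23.4%, so these shares were close between the libraries. The Fos family held 3.06% in replicate 1 and 14.2% in replicate 2, and the Batf family 20.2% and 12.0%. Jun family RNA exceeded Fos family RNA by 17.8 times in replicate 1 and 3.54 times in replicate 2. In the other quantification the corresponding ratios were 15.2 and 3.38. These are ratios of RNA in the nuclear fraction and say nothing of protein or of dimers.

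**Figure D3:**
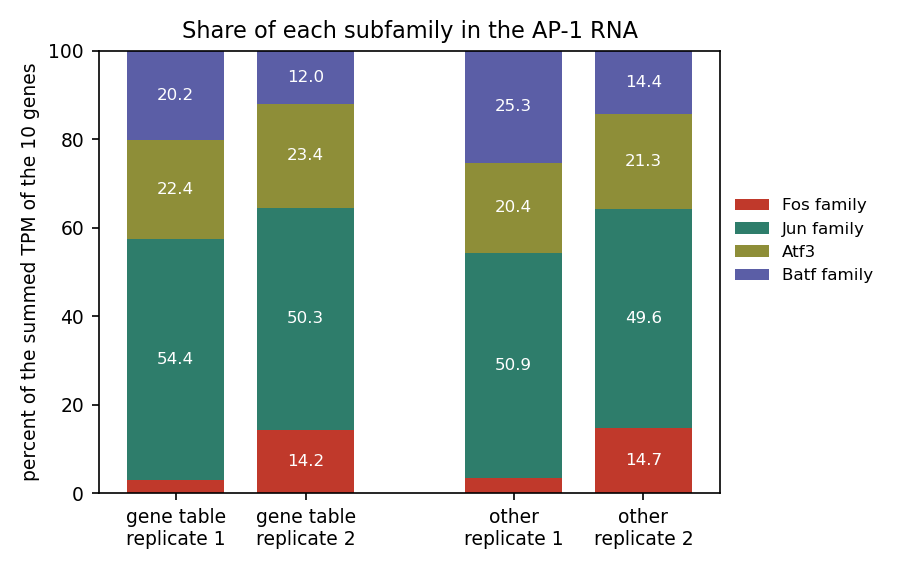
Share of the summed TPM of the 10 members held by each family, in percent, for each library and each quantification as a stacked bar. In the gene tables the Fos family takes 3.06% in replicate 1 and 14.2% in replicate 2, and the Batf family 20.2% and 12.0%.

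The transcripts behind the gene values differed in structure. Jun and Jund each have 1 annotated transcript of a single exon, and the single-exon transcript of Junb took 99.8% and 99.2% of the gene's TPM, so no intron share could be formed for this family. Atf3 was almost wholly its 4-exon transcript Atf3-201, at 100% in replicate 1 and 91.93% in replicate 2. The rest of replicate 2 went to Atf3-203, with 125 counts and an SD of 108 from assigning reads, and in the other quantification that transcript held 0.448% and 1.18%.

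Fosb has a splice form of known importance, ΔFosB, which arises when 140 bases of the last exon are removed and the protein loses its end. The transcript with that structure, Fosb-206, held 1.48 counts in replicate 2, with an SD of 2.25 from assigning reads, which cannot be told from 0. A further transcript lacking those bases, Fosb-207, held 0. Most Fosb reads of replicate 2 were placed on Fosb-205, which lacks 117 exon bases (49.0 counts, SD 15.6), on the retained-intron transcript Fosb-204 (39.3 counts, SD 1.48) and on Fosb-201 (20.3 counts, SD 16.9). The division between Fosb-205 and Fosb-201 is therefore uncertain.

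Reads on transcripts that keep intron sequence, here at least 20 bases of an intron of the first listed transcript, were counted as a share of the gene's expected counts. Such transcripts are known to be frequent in nuclear RNA. Over 6245 genes with a coding and a retained-intron transcript and a mean count of at least 50, the median share on retained-intron transcripts was 14.9% in replicate 1 and 15.3% in replicate 2. That median counts transcripts annotated as retained introns only, so it is set beside Fosb, Fosl2 and Batf but not beside Fos, which has none of that class. Fos held 12.4% (8.85 to 17.1) and 17.2% (14.3 to 20.4), all on Fos-203, a noncoding transcript that keeps 244 intron bases. The intervals of the Fos shares overlap, the other quantification gave 20.7% and 25.3%, and the coding transcript Fos-201 held 237 and 515 counts.

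Fosl2 held larger shares than Fos, though not a like measure, since its intron-keeping transcripts hold more intron bases than the 244 of Fos-203. Replicate 1 placed 26.0% (18.9 to 33.9) and replicate 2 placed 39.1% (33.4 to 45.2) of its counts there, mostly on Fosl2-202, which keeps 2839 intron bases. The intervals just overlap, and 4.003% of the 6245 genes had a larger difference in this direction. In the other quantification the Fosl2 shares were 40.2% and 43.7%, a gap that is smaller than in the gene tables and smaller than that of Fos there. Fosb held 66.7% in replicate 1, which is 4 of 6 counts, and 35.7% (26.6 to 45.1) in replicate 2.

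The Batf genes had nearly the same split in both libraries while their levels differed. Batf held 11.9% (8.81 to 15.5) of its counts on the retained-intron transcript Batf-202 in replicate 1 and 12.3% (7.20 to 19.2) in replicate 2. Batf2 held 37.5% (33.9 to 41.0) and 37.8% (31.6 to 44.3) on its 4 intron-keeping transcripts, of which Batf2-204, the 1 annotated as a retained intron, held 33.1% and 30.4%. The other quantification gave 56.9% and 57.1% for Batf2 and placed 30.8% and 31.8% of the TPM on Batf2-202 where the first placed 3.34% and 5.29%. The level of the Batf2 share thus depended on the quantification, and its likeness between the libraries did not.

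**Figure D4:**
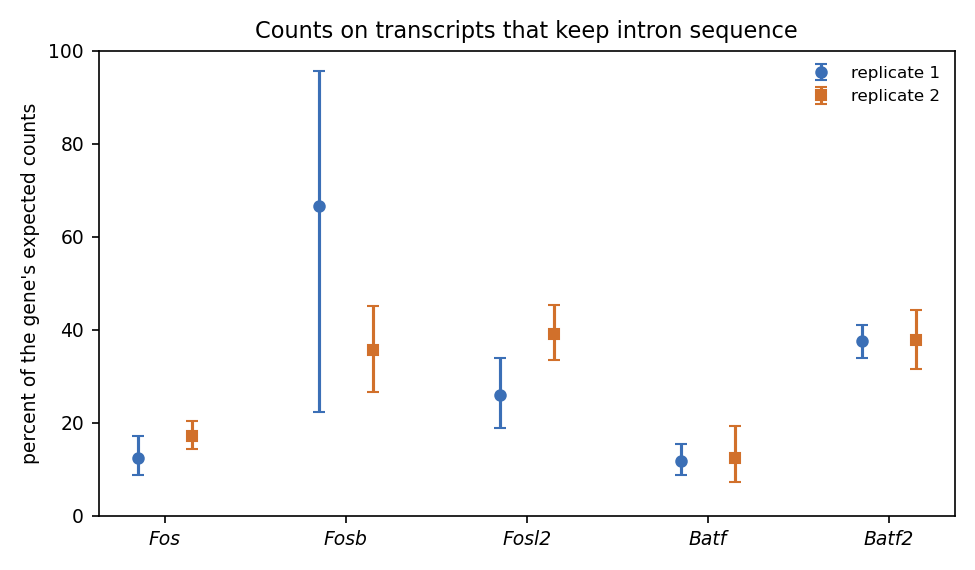
Percent of each gene's expected counts on transcripts that keep intron sequence, for each library; points are shares and bars are 95% counting intervals. Batf and Batf2 have nearly equal shares in the libraries, Fosl2 stands at 26.0% and 39.1%, and the replicate 1 value of Fosb rests on 6 counts.

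Genes around AP-1 were described by lists of related factors, upstream kinases and regulators of AP-1 proteins. Of 26 other basic leucine zipper genes, 24 were detected, led by Maf (106 ± 12.4 TPM, SD, n = 2), Nfe2l1 (62.9 ± 2.49) and Atf4 (59.5 ± 3.93), with Maff and Bach2 undetected. In that list 0 genes were more than 2-fold higher in replicate 2 and 2 were lower, beside 3.07% and 5.37% of all genes. The median log2 ratio of the list was −0.19. Cebpb, a factor that cooperates with AP-1 at macrophage enhancers, was at −1.88 (41.52 and 13.35 TPM). Jdp2, a repressor that pairs with Jun, was at −1.02, but −0.63 in the other quantification, and its TPM was higher in replicate 2 (3.20 and 3.83).

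The kinases and ternary complex factors that lead to Fos and Jun were detected in 20 of 22 cases, with a median level of 11.7 TPM. The highest were Map3k8 (39.5 ± 4.11, SD, n = 2), the kinase that opens the ERK branch below TLR4, Mapkapk2 (35.8 ± 1.85) and Mapk14 (28.01 ± 3.67), the p38α kinase, while Map2k6 and Mapk11 were undetected. None of the 22 was past 2-fold in either direction, and their median log2 ratio was 0.02. Regulators of AP-1 protein turnover and activity were all detected, 8 of 8, with a median level of 14.1 TPM, with 0 past 2-fold and a median of −0.07. They were led by the corepressor Ncor1 (66.2 ± 12.2) and the ubiquitin ligase Cop1 (32.8 ± 9.20), which targets Jun.

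Of the interferon regulatory factors that pair with BATF, Irf8 stood at 39.46 and 38.74 TPM with a log2 ratio of −0.25. Irf4 was near the floor at 0.11 and 0.40 TPM (20 and 51 counts), with a log2 ratio of 1.60. Irf8 was thus close between the libraries in which Batf and Batf2 were apart.

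The Egr and Nr4a genes are immediate early genes of other families, and they served for comparison with the Fos genes. Only Egr1 of 7 was detected, at 1.63 and 2.02 TPM with a log2 ratio of 0.04. The median log2 ratio of the 6 that had one was 0.82. Of these, 3 were more than 2-fold higher in replicate 2 and 0 lower, beside 3.07% and 5.37% of all genes. They were Nr4a1 at 3.17 (13 and 100 counts), Egr2 at 2.31 (15 and 63) and Egr3 at 1.37 (18 and 39), and Egr4 was listed at 0. Ratios spread more widely at low counts. Among protein-coding genes of like count to Fosb, 4.31% were more than 2-fold higher and 6.66% lower, beside 2.14% and 4.07% of all measured ones. Fos and Fosb thus shared their direction with Nr4a1, Egr2 and Egr3, whereas Egr1 and the other measured genes of the list were within 2-fold. Jun, Junb and Atf3, which are also early genes, were lower in replicate 2. No test of the difference between these genes was possible with 1 library on each side.

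**Figure D5:**
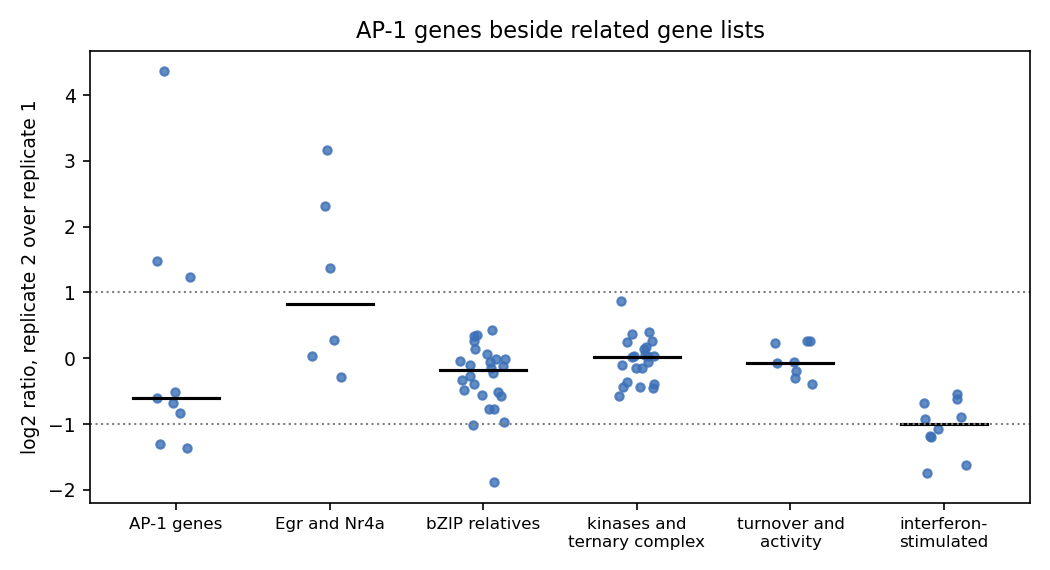
Log2 ratio, replicate 2 over replicate 1, of each measured gene in the AP-1 members and the related lists; each point is 1 gene, the bar is the median of its list and dotted lines mark 2-fold. The kinase list centres on 0.02 with no gene past 2-fold, whereas the AP-1 members run from −1.37 to 4.36.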

How the data were processed

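Gene tables deposited by the authors hold an expected count and a TPM per gene, and their transcript tables add the percent of a gene's TPM on each transcript, per the file headers. A second deposited transcript table, the other quantification, holds estimated counts and TPM. The reference was mm10 with GENCODE M21, per the labels and file descriptions. Not given in the sources used here were the aligner, the quantifiers and strandedness.

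Members were matched by symbol and gene identifier. Ratios used expected counts rounded to whole numbers for the TMM factors of edgeR 4.0.16 (0.945 and 1.06, over genes averaging 10 counts or more), with 0.5 added to each count. Intervals are 95% Clopper-Pearson and cover counting error only, since reads are not independent molecules. Alternatives changed the scaling (DESeq2 1.42.0 size factors, TPM, the median of genes of like length), the filter, the added count and the quantification. Named genes were all members, and from each list the 3 highest by TPM, undetected genes of mostly detected lists and genes past 2-fold (at most 3 each). 1 gene that this rule names is not reported here. Members and lists were chosen with earlier results of these data known. Ddit3 has 2 entries, of which the lower identifier was used. RefSeq promoters (GRCm38.p6) matched 8 of 10 members, all but Fosl1 and Batf2.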

Additional observations from a re-analysis of the deposited data

How the results depend on the processing

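Over 8 alternatives, which were other scalings, filters, added counts and the other quantification, each measured member kept the sign of its ratio. The TPM ratio of the other quantification was not among the 8. By that ratio Junb, Jund and Atf3 were higher in replicate 2, though by less than the median shift of 0.69. The alternatives that changed only the minimum count could not move a gene's ratio, and DESeq2 size factors hardly moved any. For the alternative by transcript length, the median ratio of protein-coding genes ran from −0.24 (shortest of 10 classes) to 0.11 (longest). Relative to its class, Batf moved from −1.30 to −1.06. Fos (1.42 to 1.84), Fosb (4.08 to 4.36), Fosl2 (1.12 to 1.63), Batf (−1.30 to −1.04) and Batf2 (−1.45 to −1.11) stayed past 2-fold, and Jun, Junb, Jund and Atf3 stayed within it. By TPM the median log2 ratio over the members moved from −0.61 to −0.36, a scale on which the median protein-coding gene moved by 0.24. The levels of Jun, Junb, Jund, Atf3 and Batf moved by more than the spread of the replicates in the other quantification. Those of the other 5 genes also fell, but by less than that spread, as with Fos (10.6 to 5.89 TPM, SD 8.43). With TPM scaled over protein-coding genes only, every member rose by more than the spread. Junb went from 39.5 to 188, Fosl2 from 1.52 to 7.02 and Fosb from 0.63 to 2.87. Detection at 1 TPM was not recounted on that scale. In CPM, which is not divided by length, only Batf and Batf2 stayed within the spread. Leaving out a replicate leaves no ratio, and the number detected was then 7 to 9. Depth limits Fosb in replicate 1 (6 counts) and Fosl1. No paired analysis was possible because both libraries form 1 group.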
